A study of Rattus norvegicus with 12 samples.

Results

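Proximal tubule cells take back most of the filtered sodium, glucose and protein, and the 9 genes described here encode transporters, pump subunits and receptors of that work: Slc5a1, Slc5a2, Slc2a2, Slc9a3, Slc4a4, Atp1b1, Fxyd2, Lrp2 and Cubn. They were chosen by symbol, and the brightest array row of each symbol was used. All 9 were measured, among 18166 genes with a symbol of their own. RNA came from rats whose inferior vena cava had been tied off between the 2 renal veins, so that only the left kidney drained into the obstructed segment. On day 3 the congestive left kidney and the control right kidney were each divided into cortex (Cx) and outer medulla (OM), and each piece was read on 1 GeneChip Rat Gene 2.0 ST array. Each of the 4 groups (Cx control, Cx congestion, OM control, OM congestion) held 3 arrays, 12 in all. The rats were male Sprague-Dawley, 7 to 9 weeks old and 250 to 350 g. The control kidney belonged to a ligated rat too, so both kidneys shared the operation, the anesthesia and the circulation, and no array of an unoperated rat was used here.

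Glucose and sodium enter the proximal tubule cell together across the brush border and leave it across the basolateral membrane, where the sodium pump keeps the inward gradient for sodium. Glucose is first taken up by SGLT2 (Slc5a2) in the early, mainly cortical segments, and the remainder by SGLT1 (Slc5a1) in the late straight segment, which reaches into the outer medulla. Acid secretion by the exchanger NHE3 (Slc9a3) and bicarbonate exit through NBCe1 (Slc4a4) reclaim filtered bicarbonate with sodium, and the paired receptors megalin (Lrp2) and cubilin (Cubn) bring filtered proteins into the cell.

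In the cortex 0 of the 9 genes passed the test of congestive against control kidneys, and the fitted differences lay between -0.28 and 0.07 on the log2 scale. Of all genes 7.98% were called higher in cortex and 3.64% lower. In the outer medulla Slc9a3 fell by 1.05 on the log2 scale (2.07-fold), Fxyd2 fell by 0.35 (1.27-fold) and Slc2a2 was 0.59 higher, while the other 6 did not pass, beside 11.3% of all genes called lower and 11.8% higher. For Slc9a3 the change in the outer medulla also differed from that in the cortex. Lrp2, Cubn, Slc4a4, Slc5a2 and Slc5a1 had fitted outer medullary differences between -0.67 and -0.30. In each of them congestive replicate 3 was the highest and replicate 2 the lowest of the congestive arrays.

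All values below are log2 expression values, given in the order of replicates 1, 2 and 3, and every difference is on the same scale. Tests are limma's moderated test, with the kidneys of a pair as a block for congestive against control and no block for cortex against outer medulla, and with p-values adjusted by Benjamini-Hochberg across the 18166 genes and called below 0.05. A value of 1 gene is set only against the same gene in other arrays, since array rows of different genes have no common scale. The study gave no detection calls for these values, and precision is limited by how many arrays there are. In whole tissue, fewer proximal tubule cells, fewer cells of other segments that express a gene, and less RNA per cell cannot be told apart.

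Array medians over all 36685 array rows lay between 6.02 and 6.09, and arrays of 1 group correlated with r of 0.988 to 0.991. In control kidneys, 4 of 4 measured podocyte markers and 3 of 4 distal convoluted tubule markers were higher in cortex than in outer medulla, and 5 of 6 thick ascending limb markers and 2 of 3 markers of the straight proximal segment were lower, as the region labels have it. In congestive kidneys 8 of 8 fibroblast and matrix markers were higher in both regions, 8 of 9 macrophage and leukocyte markers in cortex and 9 of 9 in outer medulla. Of 8 tubular injury markers 5 were higher in each region, and 4 of 6 thick ascending limb markers were lower in cortex and 5 of 6 in outer medulla. Their part in the results below was not tested. Among all genes 7.98% were called higher in congestive cortex and 3.64% lower, and 11.8% and 11.3% in outer medulla. Between regions of control kidneys 10.1% of all genes were called higher in cortex and 11.4% lower.

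To show the regulatory DNA next to the values, the 250 bases before the start of 3 genes with different patterns are printed here, from RefSeq's promoter table of the build GRCr8. Slc9a3 had the largest outer medullary fall of the 9, Slc2a2 was the one that was higher, and Slc5a2 had the widest gap between cortex and outer medulla. Capitals mark the GC box GGGCGG or its reverse complement CCGCCC.
Slc9a3, chr1:30996003-30996252, minus strand: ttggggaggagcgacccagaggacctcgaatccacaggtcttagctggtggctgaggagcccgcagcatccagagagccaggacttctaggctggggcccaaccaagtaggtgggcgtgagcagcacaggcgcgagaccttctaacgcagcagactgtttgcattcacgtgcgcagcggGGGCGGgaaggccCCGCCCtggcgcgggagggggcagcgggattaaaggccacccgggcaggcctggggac
Slc2a2, chr2:113540120-113540369, plus strand: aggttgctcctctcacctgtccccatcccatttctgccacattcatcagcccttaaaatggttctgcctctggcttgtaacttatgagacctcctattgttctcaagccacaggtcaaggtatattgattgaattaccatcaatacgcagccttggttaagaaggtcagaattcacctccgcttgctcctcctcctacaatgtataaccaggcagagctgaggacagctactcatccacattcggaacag
Slc5a2, chr1:192277371-192277620, plus strand: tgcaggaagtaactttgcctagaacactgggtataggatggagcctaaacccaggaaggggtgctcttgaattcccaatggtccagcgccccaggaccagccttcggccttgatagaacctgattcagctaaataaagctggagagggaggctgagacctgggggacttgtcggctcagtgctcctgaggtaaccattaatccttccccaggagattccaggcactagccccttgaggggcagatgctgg
The table held 7 of the 9 genes, without Atp1b1 and Fxyd2. GC boxes lay in the windows of Slc9a3, at 71 and 58 bases before the start, and of Lrp2, at 157 and 102 bases, against 32.4% of 27457 promoter windows of this length that hold one on either strand. The letters TATAAA (13.1% of windows) and the HNF4 site CAAAGTCCA (0.331% of windows) were in 0 of the 7, each searched on both strands. Such matches are letters in a window and were not tested as binding sites.

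Slc9a3 encodes NHE3, the sodium-proton exchanger of the brush border that also serves the thick ascending limb. In the outer medulla its control values were 10.51, 10.59 and 10.52, and its congestive values 9.54, 9.39 and 9.53. Every congestive array lay about a full log2 unit below its own control, and the 2 groups were far from overlapping. The fall was 1.05 (SE 0.08, adjusted p = 0.00011, 3 of 3 pairs lower), and the adjusted p without 1 replicate was 0.0048, 0.0032 and 0.0019 in turn. Slc9a3 had the 128th lowest difference of the 18166 genes.

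In the cortex the control values of Slc9a3 were 10.43, 10.21 and 10.31 and the congestive values 10.18, 9.99 and 10.25. The congestive array was lower in each pair, by 0.25, 0.22 and 0.06, yet the groups overlapped. The difference was -0.17 (SE 0.08, adjusted p = 0.22). It passed (adjusted p = 0.049) only when each array was centred on the median of its 18166 genes. That step lowers all cortical differences by 0.10. The outer medullary change was 0.88 below the cortical one (SE 0.12, adjusted p = 0.015). This difference of changes lost its call without any 1 replicate (adjusted p = 0.16, 0.14 and 0.099) and when all array rows, named or not, were tested (0.074). Among all genes 0.815% were called lower and 0.804% higher in this comparison, and Slc9a3 was the only 1 of the 9 called.

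The order of the 4 group means of Slc9a3 was OM control at 10.54 ± 0.04 (SD, n = 3), Cx control at 10.31 ± 0.11, Cx congestion at 10.14 ± 0.13 and OM congestion at 9.49 ± 0.09. In control kidneys the cortical values were 0.22 below those of the outer medulla without overlap, but the difference missed the threshold (adjusted p = 0.094). In congestive kidneys the order was turned, and the cortex was 0.66 above the outer medulla (SE 0.09, adjusted p = 0.00031). The cortical groups, next to each other in this order, did not differ beyond their spread.

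**Figure D1:**
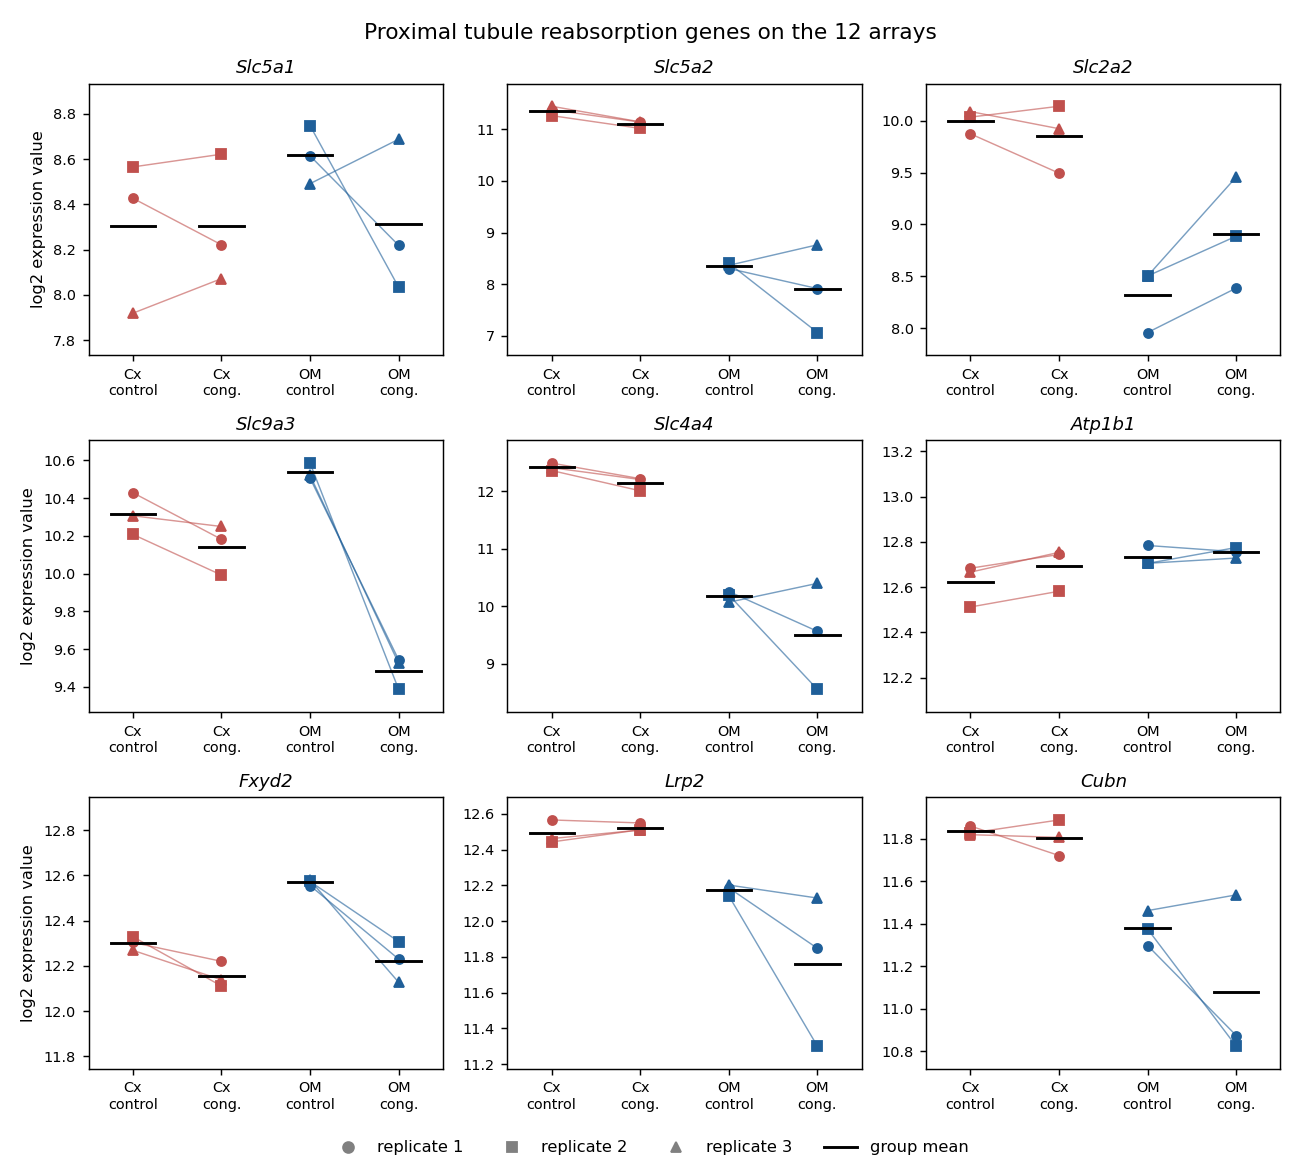
Log2 expression value (vertical axis, scaled per gene) of the 9 genes in cortex (Cx, red) and outer medulla (OM, blue) of control and congestive (cong.) kidneys. Each symbol is 1 array, lines join the kidneys of a pair, and black bars are means of 3 arrays. Slc9a3 drops in all 3 outer medullary pairs, whereas the congestive arrays of Slc5a2 and Slc4a4 spread from replicate 2 at the bottom to replicate 3 at the top.

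Slc4a4 encodes NBCe1, which carries sodium and bicarbonate out of the cell on the basolateral side. In the outer medulla the control values were 10.26, 10.20 and 10.07 and the congestive values 9.57, 8.56 and 10.40. The control arrays were within 0.2 of each other, while the congestive arrays ran from far below all controls (replicate 2) to above all of them (replicate 3). The fitted difference was -0.67 (SE 0.29, 95% interval -1.34 to 0.01, adjusted p = 0.15), with 2 of 3 pairs lower. Without replicate 3 it was -1.17 and passed (adjusted p = 0.014). Without replicate 2 it was -0.18 (adjusted p = 0.69), and without replicate 1 it did not pass either (0.38).

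Cortical values of Slc4a4 were 12.49, 12.36 and 12.41 in control and 12.22, 12.01 and 12.21 in congestive kidneys. The groups did not overlap and 3 of 3 pairs were lower, by 0.27, 0.35 and 0.21. The fit shares 1 spread between regions, and the difference of -0.28 had an SE of 0.29 and did not pass (adjusted p = 0.59). The gap between regions was wider. In control kidneys the cortex was 2.25 above the outer medulla (SE 0.32, adjusted p = 0.00032), a 4.74-fold difference, and in congestive kidneys 2.64 (SE 0.32, adjusted p = 0.00017).

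Slc5a2 encodes SGLT2, the transporter for most filtered glucose. In the cortex it read 11.38, 11.27 and 11.45 in control and 11.14, 11.02 and 11.15 in congestive kidneys. All congestive arrays lay below all controls, with pair differences of -0.24, -0.25 and -0.30. The fitted difference was -0.26 (SE 0.26, 95% interval -0.87 to 0.34, adjusted p = 0.56). The pair differences had an SD of 0.04 in cortex and 0.87 in outer medulla.

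Outer medullary values of Slc5a2 were 8.30, 8.40 and 8.36 in control and 7.91, 7.06 and 8.76 in congestive kidneys. Replicates 1 and 2 of the congestive group were below every control and replicate 3 was above them. The difference of -0.45 (SE 0.26, adjusted p = 0.28) became -0.87 without replicate 3 (adjusted p = 0.036) and 0.0045 without replicate 2 (adjusted p = 0.99). The cortex stood 3.01 above the outer medulla in control kidneys (SE 0.30, adjusted p = 1.9e-05), 8.05-fold, and 3.19 in congestive kidneys (SE 0.30, adjusted p = 3.1e-05), 9.13-fold, the widest regional gap among the 9 in both conditions. The difference between these gaps was 0.18 (SE 0.37) and did not pass (adjusted p = 0.88).

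Slc5a1 encodes SGLT1, which takes up the glucose that SGLT2 leaves. Its cortical values were 8.43, 8.57 and 7.92 in control and 8.22, 8.62 and 8.07 in congestive kidneys. The conditions overlapped, with replicate 2 highest and replicate 3 lowest in both. The fitted cortical difference was 0.00 (SE 0.16, 95% interval -0.37 to 0.37, adjusted p = 0.997).

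In the outer medulla Slc5a1 read 8.62, 8.75 and 8.49 in control and 8.22, 8.03 and 8.69 in congestive kidneys. Replicates 1 and 2 of the congestive group lay below all controls, and replicate 3 lay among them. The difference was -0.30 (SE 0.16, adjusted p = 0.23), and without replicate 3 it was -0.56 (adjusted p = 0.029). Without replicate 2 it was -0.10 (adjusted p = 0.78), and without replicate 1 it did not pass either (0.50). In neither condition did the regions differ past the threshold (differences of -0.31 and -0.01, adjusted p = 0.32 and 0.99), so all neighbours in the order of the 4 means, from OM control at 8.62 to Cx control at 8.30, did not differ beyond their spread.

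Slc2a2 encodes GLUT2, the carrier through which glucose leaves the cell toward the blood. Outer medullary control values were 7.96, 8.50 and 8.50 and congestive values 8.39, 8.89 and 9.46. Each congestive array was above its own control, by 0.43, 0.38 and 0.96, but the lowest congestive array was below 2 of the controls. The gene was 0.59 higher (SE 0.13, adjusted p = 0.015) when kidneys were compared within pairs. With no replicate block the same difference did not pass (adjusted p = 0.12), nor did the methods' t-test (adjusted p = 0.39). Without replicate 1 the adjusted p was 0.054, without replicate 2 it was 0.034, and without replicate 3 it was 0.096.

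In the cortex Slc2a2 read 9.87, 10.04 and 10.09 in control and 9.49, 10.14 and 9.92 in congestive kidneys, overlapping groups with 2 of 3 pairs lower. The difference was -0.15 (SE 0.13, adjusted p = 0.52), and the outer medullary change exceeded it by 0.74 (SE 0.19, adjusted p = 0.11). The cortex was 1.68 above the outer medulla in control kidneys (SE 0.25, adjusted p = 0.00038). In congestive kidneys the gap was 0.94 (SE 0.25, adjusted p = 0.020), and without replicate 2 that gap did not pass (adjusted p = 0.22). Among the 9 genes Slc2a2 was the only one whose 3 outer medullary pairs were all higher.

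**Figure D2:**
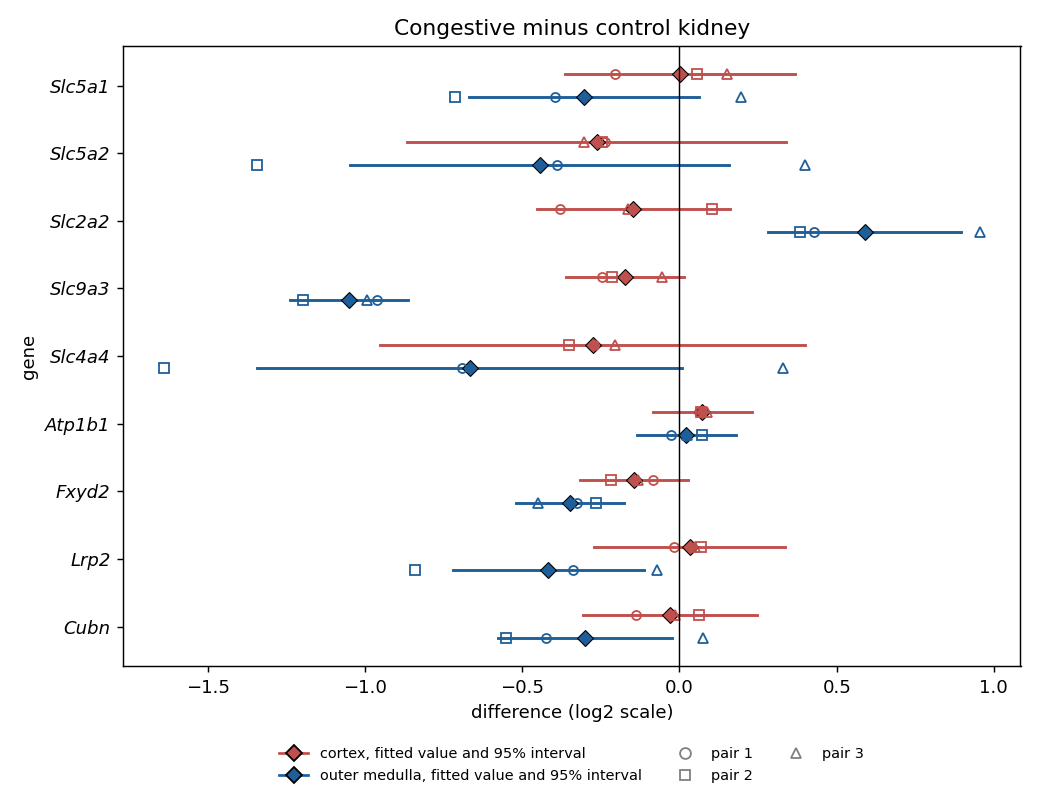
Congestive minus control kidney for each of the 9 genes in cortex (red) and outer medulla (blue), on the log2 scale. Diamonds and lines are the fitted difference and its 95% interval, and open symbols are the 3 pairs. The intervals of Slc9a3, Fxyd2, Lrp2 and Cubn lie below 0 in outer medulla and that of Slc2a2 above, of which Slc9a3, Fxyd2 and Slc2a2 passed after adjustment.

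Atp1b1, the beta subunit that carries the sodium pump to the membrane, gave the steadiest values of the 9. In cortex it read 12.68, 12.51 and 12.67 in control and 12.74, 12.58 and 12.75 in congestive kidneys, and in outer medulla 12.78, 12.70 and 12.70 against 12.76, 12.77 and 12.73. The 12 arrays lay within 0.3 of each other and the groups overlapped in both regions. The differences were 0.07 in cortex (95% interval -0.08 to 0.23, adjusted p = 0.53) and 0.02 in outer medulla (95% interval -0.14 to 0.18, adjusted p = 0.87). Both turned negative (-0.03 and -0.05) with arrays centred on the median of their 18166 genes. Neither regional difference passed (adjusted p = 0.35 and 0.67).

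Fxyd2 encodes the gamma subunit, a small membrane protein that tunes the pump's affinity for its ions. In the outer medulla it read 12.56, 12.57 and 12.58 in control and 12.23, 12.31 and 12.13 in congestive kidneys. All congestive arrays lay below all controls, and the controls were almost identical. The gene fell by 0.35 (SE 0.07, adjusted p = 0.012) with 3 of 3 pairs lower. Each of the 3 replicates was needed for the call, since the adjusted p without replicates 1, 2 and 3 in turn was 0.089, 0.056 and 0.10.

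Cortical values of Fxyd2 were 12.30, 12.33 and 12.27 in control and 12.22, 12.11 and 12.14 in congestive kidneys. Here too the groups did not overlap and 3 of 3 pairs were lower, but the difference of -0.14 (SE 0.07) did not pass (adjusted p = 0.26). OM control held the highest of the 4 means, 0.27 above Cx control (SE 0.07, adjusted p = 0.013, lost without replicate 1, 2 or 3 at 0.14, 0.087 and 0.098). In congestive kidneys the regions differed by 0.07 (adjusted p = 0.60).

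The count of 0 called in cortex held with limma at an unadjusted p under 0.05 too. The methods' t-test without adjustment called 3 genes lower there, Slc5a2, Slc4a4 and Fxyd2, and 0 after adjustment. Those 3 were also the genes whose cortical groups did not overlap. The shares of all genes separated in this way, or called there without adjustment, are not given here. Whether the count of 3 exceeds such shares was not tested.

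Lrp2 encodes megalin, the large scavenger receptor of the brush border. In the outer medulla it read 12.19, 12.14 and 12.20 in control and 11.85, 11.30 and 12.13 in congestive kidneys. Each congestive array was below every control, with replicate 3 just beneath them and replicate 2 lowest. The difference was -0.42 (SE 0.13, 95% interval -0.72 to -0.11), just short of the threshold (adjusted p = 0.055). It passed when arrays were quantile normalized (0.046) or centred (0.029), when only the brighter genes were tested (0.023), with a trended, robust spread (0.033) and without replicate 3 (0.033). In the other 8 of 13 alternatives it did not pass, with adjusted p up to 0.37. Among these were no replicate block (0.077), without replicate 1 (0.18) and without replicate 2 (0.31).

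Cortical values of Lrp2 were 12.57, 12.44 and 12.46 in control and 12.55, 12.51 and 12.51 in congestive kidneys. The groups overlapped and the difference was 0.03 (SE 0.13, adjusted p = 0.90), or -0.07 with centred arrays. The cortex was 0.31 above the outer medulla in control kidneys (adjusted p = 0.19) and 0.76 above it in congestive kidneys (SE 0.16, adjusted p = 0.0048, and 0.11 without replicate 1). The difference between those gaps, which is the difference between the 2 changes, did not pass (adjusted p = 0.30).

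Cubn encodes cubilin, the partner of megalin that binds albumin and vitamin B12 with its carrier. It read 11.30, 11.38 and 11.46 in control and 10.87, 10.82 and 11.54 in congestive outer medulla. Replicates 1 and 2 of the congestive group were below all controls and replicate 3 was above them all. The difference was -0.30 (SE 0.12, adjusted p = 0.12), and it passed with centred arrays (0.044) and without replicate 3, where it was -0.49 (0.026). Without replicate 2 it was -0.17 (0.51), and without replicate 1 it did not pass either (0.42).

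In the cortex Cubn hardly differed between kidneys, with 11.86, 11.83 and 11.82 in control against 11.72, 11.89 and 11.81 in congestive arrays. The difference was -0.03 (SE 0.12, adjusted p = 0.90). The cortex was 0.46 above the outer medulla in control kidneys, at the edge of the threshold (adjusted p = 0.0501, and 0.038 with the replicate number as a block). In congestive kidneys it was 0.73 above (SE 0.15, adjusted p = 0.0054), but this was lost without replicate 1 or 2 (adjusted p = 0.13 both times).

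**Figure D3:**
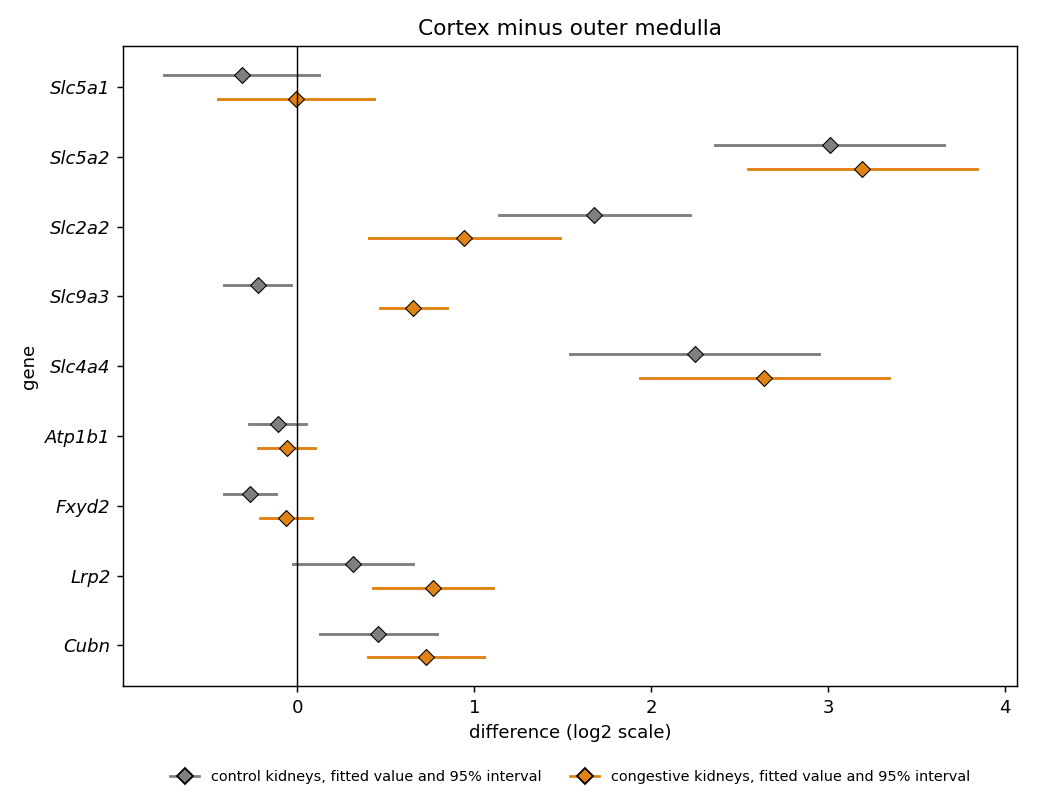
Cortex minus outer medulla on the log2 scale for the 9 genes in control (grey) and congestive (orange) kidneys, as fitted differences (diamonds) with 95% intervals (lines). Slc5a2, Slc4a4 and Slc2a2 lie far to the right in both conditions, and Slc9a3 moves from -0.22 in control to 0.66 in congestive kidneys.

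Across the 9 genes, 3 were higher in cortex than in outer medulla of control kidneys (Slc5a2, Slc4a4 and Slc2a2), 1 was lower (Fxyd2) and 5 did not pass, beside 10.1% of all genes called higher and 11.4% lower. In congestive kidneys 6 were higher (Slc9a3, Lrp2 and Cubn besides those 3) and 0 lower, and 0 were lower at an unadjusted p under 0.05 or in any alternative limma fit. Of all genes 9.73% were called higher and 8.96% lower in congestive kidneys. The 9 genes had a median change of -0.14 in cortex and -0.35 in outer medulla, beside -0.02 and -0.01 for all genes.

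Leaving out replicate 3 altered the outer medullary picture more than any other setting, from 1 gene higher and 2 lower to 6 lower (Slc5a1, Slc5a2, Slc9a3, Slc4a4, Lrp2 and Cubn) and 0 higher. Without replicate 1 only Slc9a3 was called, and without replicate 2 Slc9a3 and Slc2a2. The shares of all genes called without 1 replicate are not given here. Whether calls shifted over all genes in the same way was not tested. In the congestive outer medulla the summed level of the 24 measured proximal tubule markers was 15.40, 14.84 and 15.67, against 15.82, 15.75 and 15.82 in control. The summed level of 4 distal convoluted tubule markers, which belong to the cortex, was 8.43, 8.09 and 9.73 in congestive and 8.90, 9.21 and 9.60 in control outer medulla. Replicate 2 was lowest and replicate 3 highest in both congestive sums, as in Slc5a1, Slc5a2, Slc4a4, Lrp2 and Cubn. Slc9a3, Slc2a2 and Fxyd2 had other orders. The sum of 3 markers of the straight proximal segment shared that order (12.52, 12.21 and 12.59 in congestive, 13.06, 13.06 and 13.09 in control). Sums add linear values, so this one is nearly that of Slc7a13 (mean 13.01 in control outer medulla, against 7.72 for Slc22a7 and 7.01 for Cyp7b1). The 3 markers did not move together there. Slc7a13 did not pass (-0.69, adjusted p = 0.18), Slc22a7 fell by 0.94 (0.0028) and Cyp7b1 was 1.29 higher (0.00012). The sum of 4 podocyte markers, also higher in cortex, did not (10.20, 10.22 and 10.25 in congestive, 10.44, 10.55 and 10.35 in control). The part of tubule content or of the line of dissection in these values was not tested.

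Other sugar transport genes of the tubule were measured alongside, namely carriers and the SGLT2 partner Pdzk1ip1. In the outer medulla 6 of 8 fell, beside 11.3% of all genes called lower and 11.8% higher. In cortex 0 of 8 passed (0 higher and 1 lower at an unadjusted p under 0.05), beside 3.64% of all genes called lower and 7.98% higher. The changes of the 2 regions did not differ past the threshold for any of the 8 (limma, 6 at an unadjusted p under 0.05). Slc5a11, a sodium-coupled inositol transporter, fell by 1.02 (adjusted p = 0.0047), and the fructose carrier Slc2a5 fell by 0.66 (0.011). Slc5a9, a mannose and fructose transporter, fell by 0.66 (0.023) and Slc2a12, a glucose carrier, by 0.53 (0.0046). Pdzk1ip1, the small partner that SGLT2 needs for activity, fell by 0.44 (0.023), and the widespread glucose carrier Slc2a1 fell by 0.37 (0.016, and 0.13 with no replicate block). All 8 had negative differences with a median of -0.48. The count of 6 became 1 without replicate 1, 2 without replicate 2 and 6 without replicate 3.

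Of 15 measured genes for other sodium, acid-base and anion transport, 8 fell in the outer medulla and 0 passed in cortex. In cortex 1 was higher and 2 lower at an unadjusted p under 0.05. Among all genes 11.3% were called lower and 11.8% higher in outer medulla, and 3.64% lower and 7.98% higher in cortex. For none of the 15 did the changes of the regions differ past the threshold (limma, 3 at an unadjusted p under 0.05). The dicarboxylate carrier Slc13a2 fell by 0.89 (adjusted p = 0.0075) and the monocarboxylate carrier Slc5a8 by 0.82 (0.015). Pdzk1 and Nherf1 are scaffolds that hold brush border transporters, and Nherf1 binds NHE3. Pdzk1 fell by 0.64 (0.025, and 0.061 with no replicate block) and Nherf1 fell by 0.49 (0.0075). In cortex Nherf1 did not pass (0.99), and its difference of changes did not either (0.13). The median of the 15 was -0.41 in outer medulla and -0.14 in cortex, and the outer medullary count was 0, 1 and 10 without replicates 1, 2 and 3.

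Of the other pump subunits and FXYD regulators, 8 were analysed here. In cortex 2 were called higher and 1 lower, beside 7.98% and 3.64% of all genes. In outer medulla 3 were called higher and 1 lower, beside 11.8% and 11.3% of all genes. The beta subunits Atp1b2 and Atp1b3 did not pass in either region. Their cortical differences were 0.06 and 0.26, and their outer medullary ones -0.08 and 0.23. Fxyd1 (phospholemman) was 0.82 higher in cortex (adjusted p = 0.0035) and 1.33 higher in outer medulla (0.00016). Fxyd5 (dysadherin) was 0.81 higher in cortex (0.0052) and 0.77 in outer medulla (0.0031), and Fxyd6 was 0.64 higher in outer medulla (0.019).

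Fxyd4, the FXYD protein of the collecting duct, fell by 1.25 in outer medulla (adjusted p = 8.7e-05) and by 0.43 in cortex (0.022, and 0.21 with no replicate block). Its changes differed between regions by -0.82 (adjusted p = 0.029, and 0.25 with no replicate block). This call was lost without replicate 1, 2 or 3 (adjusted p = 0.17, 0.21 and 0.12). The cortical call was lost in the same way (0.096, 0.11 and 0.091). Of 10 collecting duct markers 5 were lower in cortex and 7 in outer medulla, beside 3.64% and 11.3% of all genes. Their part in the changes of Fxyd2 and Fxyd4 was not tested. For the pump and FXYD list, without replicates 1, 2 and 3 the cortical count of 3 became 1, 1 and 2. The outer medullary count of 4 became 3, 3 and 4.

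Of 20 measured endocytosis genes that work with megalin and cubilin, 4 fell and 3 were higher in outer medulla, with a median of -0.01. Among all genes 11.3% were called lower and 11.8% higher, and their median was -0.01 too. No difference of the list from these shares was tested. Amn (amnionless), which anchors cubilin, fell by 0.58 (adjusted p = 0.026), the endosomal chloride-proton exchanger Clcn5 by 0.45 (0.0079) and the megalin chaperone Lrpap1 by 0.39 (0.037). Dab2, the adaptor on the tail of megalin, was 0.43 higher (0.0047). Also called, and named after their values were seen, were the folate receptor Folr1 (-0.38, adjusted p = 0.021, and 0.35 with no replicate block) and the adaptors Gipc1 (0.36) and Ap2m1 (0.26).

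In cortex Clcn5 alone was called, with a fall of 0.42 (adjusted p = 0.019). That cortical call was lost without any 1 replicate, and the outer medullary count of 7 became 0, 1 and 5 without replicates 1, 2 and 3.

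Of 24 measured proximal tubule markers 15 fell in the outer medulla and 0 were higher, with a median of -0.55. Beside them 11.3% of all genes were called lower and 11.8% higher there, and 3.64% lower and 7.98% higher in cortex. Alkaline phosphatase Alpl fell by 1.32 (adjusted p = 0.0027), the organic anion transporter Slc22a6 by 1.03 (0.023), the brush border protease Mep1a by 0.83 (0.0045) and the aminopeptidase Xpnpep2 by 0.82 (0.010). The count was 2 without replicate 1, 4 without replicate 2 and 18 without replicate 3. In cortex 1 of the 24 was called, named after its value was seen: Ace, the angiotensin-converting enzyme, which is also an endothelial gene, was 0.62 higher (0.025, and 0.19 with no replicate block). It was lower in outer medulla (-0.45, adjusted p = 0.046, and 0.31 with no replicate block), and of the 24 it was the only one called for the difference between the regions, -1.07 (0.042, and 0.27 with no replicate block). The cortical call of Ace was lost without any 1 replicate.

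**Figure D4:**
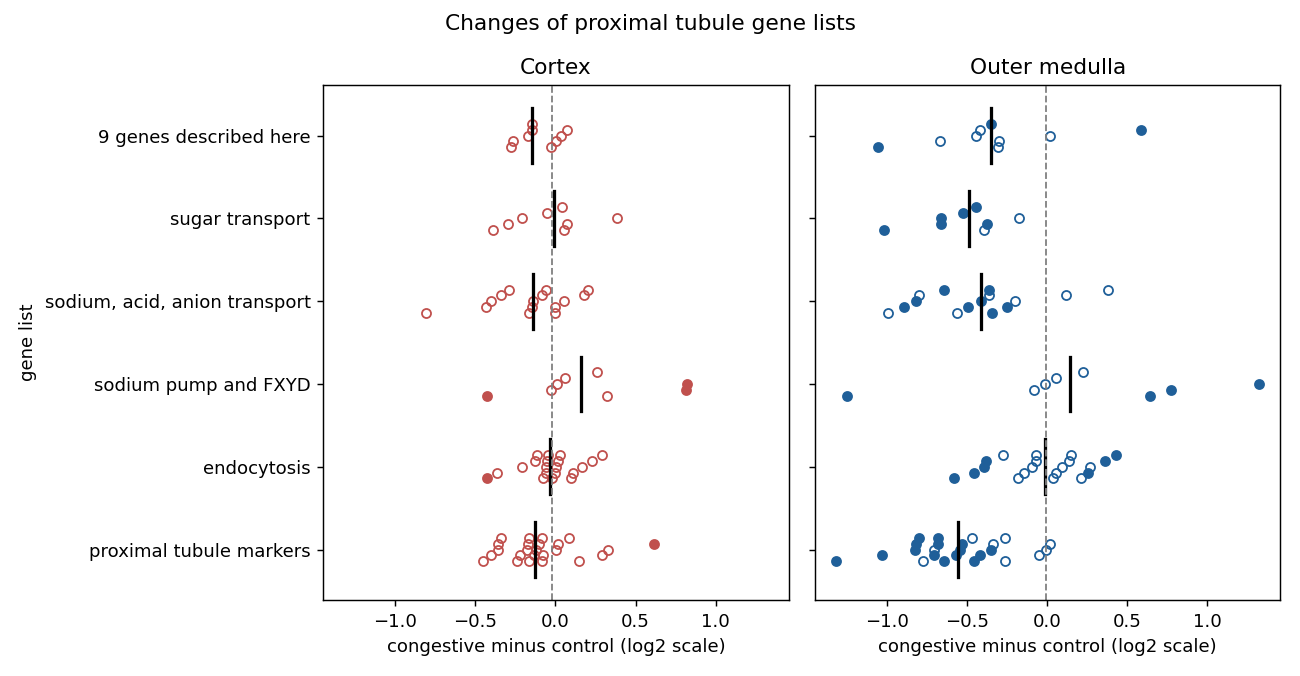
Congestive minus control difference (log2 scale) of each measured gene in 6 lists, in cortex (left) and outer medulla (right). Filled points passed the test, black bars are list medians and the dashed line is the median of all genes. In outer medulla 6 of 8 sugar transport genes, 8 of 15 sodium, acid and anion transport genes and 15 of 24 proximal tubule markers are filled on the negative side. Among all genes 11.3% were called lower there.

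Over the 12 arrays each gene's profile was also set against every other gene, with Pearson's r as a description. The arrays share animals and fall into 2 regions, so the gap between regions enters every r. For Slc4a4 the closest were Slc22a8 (r = 0.999), Slc5a12 (0.998) and Slc34a3 (0.998), and for Slc5a2 Fam151a (0.997), Akr1c1 (0.996) and Bnc2 (0.996). For Lrp2 they were Slc47a1 (0.989), Miox (0.987) and Ddah1 (0.986), and for Cubn Map3k13 (0.986), Vil1 (0.986) and Hpd (0.982).

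For Slc9a3 the closest were Mpc1 (r = 0.963), Kcnq1 (0.956) and Sdhd (0.951), for Slc2a2 Kif11 (0.970), Arsb (0.965) and Ralb (0.965), and for Fxyd2 Or4d10 (0.967), C5h9orf152 (0.964) and Mavs (0.962). For Atp1b1 they were Kidins220 (0.932), Mdm4 (0.907) and Fam219a (0.899), and for Slc5a1 H6pd (0.898), Dhcr7 (0.861) and Or5k14 (0.829).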

How the data were processed

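The authors hybridised biotin-labelled total RNA of cortex and outer medulla to GeneChip Rat Gene 2.0 ST arrays, and the deposited log2 values had been normalized between arrays with Affymetrix Expression Console. Version, summarization and log base: not given in the sources used here. With a top of 13.5, values exceed the natural log (11.1) and log10 (4.82) of a 16-bit scanner's limit, so the values were read as log2. Of 36685 array rows 18511 carry 1 gene symbol, and the brightest row per symbol left 18166 genes.

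With limma 3.58.1 in R 4.3.3, congestive minus control was fitted over 12 arrays with 6 pair blocks (4 residual and 3.96 prior degrees of freedom), and regions were compared in a fit of group means (8 and 3.66). P-values were adjusted by Benjamini-Hochberg over all genes, without a filter on dim genes. Pairs follow the replicate numbers and the study's comparison of both kidneys within a rat. The deviations of same-numbered arrays correlated at -0.0003, 0.137 and 0.344 (cortex) and at 0.169, 0.250 and 0.207 (outer medulla). For replicate 3 in cortex title and source name disagree on the number, and the title was used. The region fit treats cortex and outer medulla as unrelated, although the study had 3 rats. That a number marks the same rat in both is inferred from the labels. An exact permutation test of 3 against 3 arrays cannot go below p = 0.1.

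Named were the 9 genes, up to 4 called genes with the largest change per list, all called sugar transport and pump genes, and the 3 closest profiles. Genes and lists were chosen with earlier results of these data known. Scripts were tested on simulated data. Promoters were searched in Python 3.11.15 and figures drawn with matplotlib 3.10.9.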

Additional observations from a re-analysis of the deposited data

Results flagged for a closer look

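Slc9a3 (NHE3) drew attention because its change under congestion differed between the 2 regions in a direct test of that difference. The outer medullary change minus the cortical one was -0.88 (limma, adjusted p = 0.015), made of -1.05 in outer medulla and -0.17 in cortex, with all 3 pairs lower in both regions. The result kept its direction without each replicate, between -0.96 and -0.83, but the adjusted p then lay between 0.099 and 0.16.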

How the results depend on the processing

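Of the 3 outer medullary calls, Slc9a3 passed under all 13 alternatives (adjusted p at most 0.029), Fxyd2 under those that kept every replicate, and Slc2a2 lost its call with no replicate block, with the methods' t-test and without replicate 1 or 3. The paired fit and the fit with no replicate block gave 3 and 2 genes called in outer medulla, 0 and 0 in cortex, and 1 and 1 for the difference between regions. With no replicate block 2 endocytosis genes and 0 proximal tubule markers were called in cortex, against 1 and 1. A trended, robust spread gave 2 genes with a difference between regions (Slc9a3 and Slc2a2), and in cortex 1 sugar, 1 sodium, acid or anion and 3 endocytosis genes. Quantile normalization gave 1 sugar and 2 endocytosis genes in cortex. The cause was not tested.

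Centring arrays on the median of their 18166 genes lowered all differences by 0.10 in cortex and 0.07 in outer medulla. It called 1 of the 9 genes in cortex and 5 in outer medulla, and over all genes 1146 higher and 2266 lower in cortex (1449 and 661 otherwise) and 1744 and 3153 in outer medulla (2150 and 2057). Testing all array rows left 0 of the 9 with a difference between regions, and testing the brighter genes gave 2. The methods' t-test without adjustment called 3 in cortex.

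Without 1 replicate, 1 to 6 of the 9 were called in outer medulla and 0 to 0 differed between regions. The lists had 1 to 6 sugar, 0 to 10 sodium, acid and anion, 0 to 5 endocytosis and 2 to 18 marker genes in outer medulla, and 1 to 2 pump, 0 to 0 endocytosis and 0 to 0 marker genes in cortex. Fewer arrays also leave fewer degrees of freedom, and the shares of all genes called in these fits are not given here.

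Some differences that had not passed changed sign. In cortex Slc5a1 (0.00) became -0.037 with quantile normalization and -0.103 with centring, and ranged from -0.075 to 0.104 without 1 replicate, Atp1b1 and Lrp2 became -0.032 and -0.071 with centring, and Cubn ranged from -0.076 to 0.024. In outer medulla Atp1b1 became -0.047 with centring and ranged from -0.00235 to 0.047 without 1 replicate, and Slc5a2 from -0.87 to 0.0045. The difference of changes ranged from -0.62 to 0.28 for Slc5a2 and from -0.85 to 0.057 for Slc4a4. The regional gap in congestive kidneys ranged from -0.31 to 0.30 for Slc5a1, from -0.10 to 0.00665 for Atp1b1 and from -0.10 to 0.0005 for Fxyd2. Signal over background is unknown for these values, so how far dim signals limit them was not tested.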
